A study of Homo sapiens with 18 samples.

Results

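SMAD3 and 9 other genes of TGF-beta signalling were followed in 2 human prostate cancer cell lines treated with an androgen after knockdown of the antisense RNA CTBP1-AS or of PSF. The members were every transcript cluster, the probe set of 1 gene on the array, whose platform annotation was or included SMAD2, SMAD3, SMAD4, SMAD6, SMAD7, TGFBR1, TGFBR2, TGFBR3, PMEPA1 or THBS1. These were 11 of 33297 transcript clusters, or 10 of the 18417 genes that had a cluster with a single symbol. SMAD2 had 2 clusters and is given by the brighter one unless stated.

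The series held 18 Affymetrix Human Gene ST arrays in 12 groups, 12 arrays of LNCaP and 6 of VCaP. Both are established lines from prostate cancer metastases that respond to androgen, and R1881 is a synthetic androgen. Transfection preceded the hormone by 48 h, and for 3 days before it the medium held charcoal-stripped serum, at 2.5% for LNCaP and 5% for VCaP. They then received ethanol vehicle or R1881 for a time not given in the sources used here. PSF is the RNA-binding protein encoded by SFPQ, and CTBP1-AS is transcribed antisense to CTBP1.

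The arrays formed 4 sets. LNCaP set 1 held siControl and siCTBP1-AS with 10 nM R1881, LNCaP set 2 held a siControl and a siCTBP1-AS that the labels number #2 with 1 nM, and LNCaP set 3 held siControl and siPSF with 10 nM. In VCaP, 1 set covered all 3 siRNAs (siControl, siCTBP1-AS #2, siPSF) with 1 nM. Each set had 1 vehicle and 1 R1881 array per siRNA. LNCaP siControl thus had 3 arrays per treatment, with R1881 at 10, 1 and 10 nM. LNCaP siCTBP1-AS had 2 per treatment, which differed in the numbered siRNA and in the R1881 dose of their set. The remaining groups had 1. The labels do not say that replicates were separate cultures, so p-values measure only the spread between these arrays, which may be technical. In these bulk samples, fewer cells that express a gene and less RNA of it per cell cannot be told apart.

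TGF-beta ligands bind the type II receptor TGFBR2, which recruits and activates the type I receptor TGFBR1, and the coreceptor TGFBR3 (betaglycan) presents ligand to them. The active receptors phosphorylate SMAD2 and SMAD3, which join SMAD4 and regulate target genes in the nucleus. SMAD6, SMAD7 and PMEPA1 restrain the pathway, and THBS1 can activate latent TGF-beta. In normal prostate epithelium the pathway restrains growth, and PMEPA1 is also known as an androgen-induced gene of the prostate.

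The promoter windows of 4 members are printed because these genes carried the clearest androgen or knockdown differences, or the rarest motif. Each is the 250 bases upstream of the first listed start in RefSeq (GRCh38.p14), written 5′ to 3′ on the gene's strand, with motif matches in capitals. The motifs searched on both strands were the SMAD palindrome GTCTAGAC and the SMAD box CAGAC or GTCTG. Neither contains the other. The windows are SMAD3 at chr15:67065352-67065601 (plus strand), PMEPA1 at chr20:57711473-57711722 (minus strand), THBS1 at chr15:39580829-39581078 (plus strand) and SMAD6 at chr15:66701986-66702235 (plus strand).
SMAD3: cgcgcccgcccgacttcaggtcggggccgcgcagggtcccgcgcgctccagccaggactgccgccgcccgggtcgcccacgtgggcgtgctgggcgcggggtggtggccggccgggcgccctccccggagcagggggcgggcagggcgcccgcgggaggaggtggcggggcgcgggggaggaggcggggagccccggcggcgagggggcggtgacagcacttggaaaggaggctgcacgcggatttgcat
PMEPA1: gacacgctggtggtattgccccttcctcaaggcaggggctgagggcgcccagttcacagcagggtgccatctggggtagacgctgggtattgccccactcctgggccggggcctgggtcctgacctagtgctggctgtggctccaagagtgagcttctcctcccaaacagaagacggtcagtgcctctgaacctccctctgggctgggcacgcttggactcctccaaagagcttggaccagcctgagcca
THBS1: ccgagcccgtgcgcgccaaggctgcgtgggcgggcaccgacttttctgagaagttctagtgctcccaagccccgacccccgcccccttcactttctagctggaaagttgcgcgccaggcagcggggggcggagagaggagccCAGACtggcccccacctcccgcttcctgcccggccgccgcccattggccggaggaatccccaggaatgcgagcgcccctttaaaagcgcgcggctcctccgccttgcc
SMAD6: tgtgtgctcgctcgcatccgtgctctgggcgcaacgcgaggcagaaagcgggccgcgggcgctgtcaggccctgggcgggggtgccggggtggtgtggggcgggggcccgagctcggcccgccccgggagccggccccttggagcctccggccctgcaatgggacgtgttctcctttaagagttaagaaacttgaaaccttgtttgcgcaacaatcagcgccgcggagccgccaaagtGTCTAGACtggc
The printed windows of SMAD3 and PMEPA1 held none of these letters. THBS1 held 1 SMAD box, whose first base lay at -108 from the start, and SMAD6 held the palindrome at -12. At their other listed starts, SMAD3 had boxes at -133 (start 4) and at -172, -135 and -85 (start 5), and PMEPA1 at -115 (start 2) and -71 (start 4).
Among the members' first windows, 3 of 10 held a SMAD box, against 37.8% of 27305 first windows of all genes. The palindrome was found in 1 of the members' 28 windows, and in 0.182% of all 35116 windows. A match is a description of letters and not evidence of a binding site.

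The arrays within a set had medians within a narrow range, but the sets lay apart. In log2 signal, LNCaP set 1 had array medians of 6.69 to 6.71, the second LNCaP set of 5.73 to 5.75 and the third of 6.75 to 6.85, while those of VCaP were 6.22 to 6.28, and correlations between arrays of a set were 0.98 to 0.99 over all clusters. Differences were therefore taken within a set. SFPQ was lower with siPSF by 0.69 and 0.90 on the log2 scale in LNCaP (vehicle, R1881) and by 1.33 and 1.55 in VCaP, while CTBP1-AS itself was not analysed here. The 6 luminal prostate markers found, of 8 listed, were all in the upper 75% of genes by mean signal. Of the other markers found, 2 of 3 basal epithelial, 4 of 8 fibroblast, 2 of 5 leukocyte and 0 of 4 endothelial ones were.

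PMEPA1 rose and SMAD3 fell with R1881 in both lines. THBS1 rose in LNCaP, and SMAD4 rose in VCaP. In each of these comparisons the other members did not pass the test. The first comparison asked what R1881 changed in LNCaP with siControl, over 3 arrays per treatment, in limma with the array set as a block. Here 9 members passed the filter on low values (TGFBR2 did not), and 3 of them were called at a Benjamini-Hochberg adjusted p under 0.05, 2 higher and 1 lower. Of all 13813 genes tested, 5.31% were called, 2.9% higher and 2.41% lower. The 734 genes called became 1229 without set 1, 208 without set 2 and 396 without set 3.

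SMAD3, the receptor-activated SMAD that binds DNA at SMAD boxes, read 8.28, 7.75 and 7.88 log2 signal with vehicle in LNCaP sets 1, 2 and 3, and 7.64, 6.73 and 7.37 with R1881. Every R1881 array was lower than all 3 vehicle arrays. SMAD3 fell by 0.73 on the log2 scale (SE 0.13, 3 pairs), or 1.65-fold (limma adjusted p = 0.0301). The call depended on sets 2 and 3: the adjusted p was 0.142 without set 2 and 0.0512 without set 3.

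PMEPA1, which binds SMAD2 and SMAD3 and keeps them from the receptor, read 7.79, 7.77 and 8.96 with vehicle and 10.78, 11.11 and 11.75 with R1881 in the same 3 sets. The treatments did not overlap, and the difference was 3.04 (SE 0.13), or 8.23-fold (limma adjusted p = 0.000342). THBS1, the matrix glycoprotein thrombospondin-1, read 8.14, 5.43 and 6.85 with vehicle and 9.06, 6.04 and 7.38 with R1881. Its R1881 arrays overlapped the vehicle arrays of other sets, since the sets differed more than the treatments did. Within sets it rose by 0.92, 0.60 and 0.52, a mean of 0.68 (SE 0.12, limma adjusted p = 0.0274), and the adjusted p was 0.124 without set 2 and 0.0631 without set 3.

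The other 6 members tested lay between -0.15 (TGFBR3) and 0.07 (TGFBR1), with adjusted p from 0.488 to 0.957. Without the set block, the estimates were the same but the adjusted p of SMAD3 and THBS1 was 1.00. PMEPA1 was still called.

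**Figure D1:**
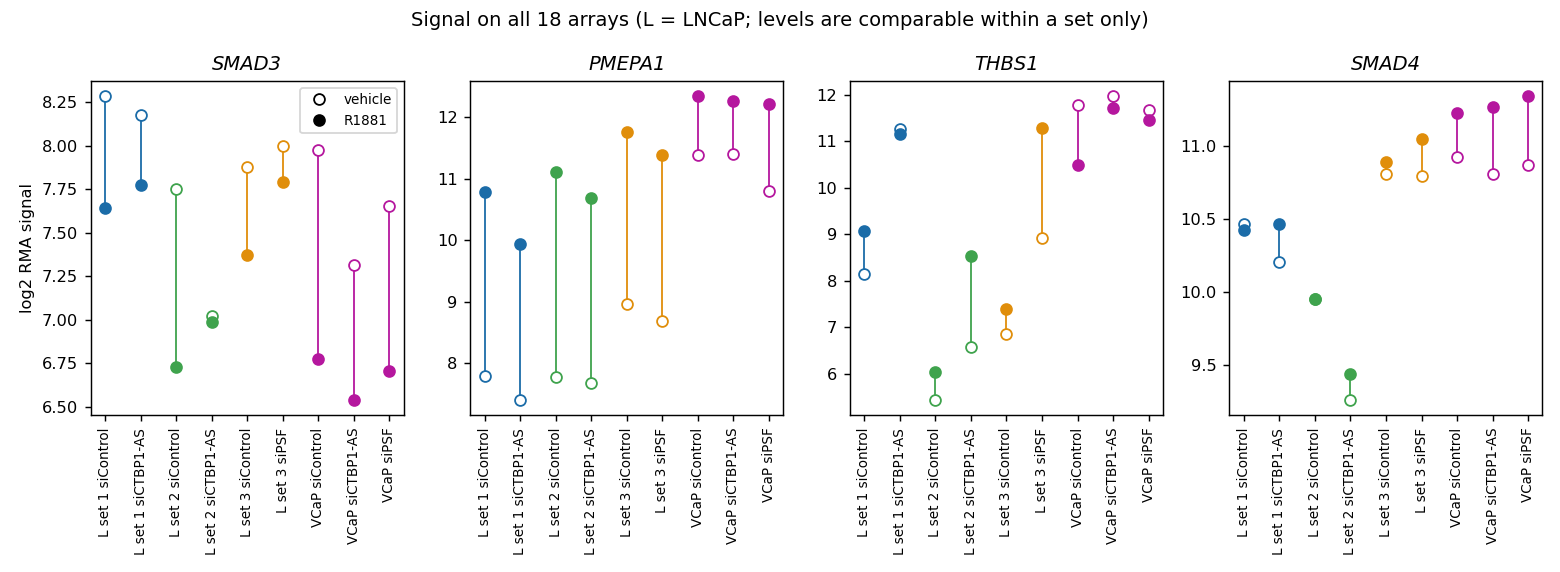
Log2 RMA signal of SMAD3, PMEPA1, THBS1 and SMAD4 (vertical axes) on all 18 arrays, with 1 column per array set and siRNA. Open points are vehicle, filled points R1881, and lines join the 2 arrays of a pair. SMAD3 was lower with R1881 and PMEPA1 higher in all 9 pairs, THBS1 ran upward in 5 of 6 LNCaP pairs and downward in the 3 VCaP pairs, and SMAD4 was higher with R1881 in the 3 VCaP pairs.

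The androgen response was then compared over siRNAs, with the 9 vehicle and R1881 pairs as a block, 6 pairs in LNCaP and 3 in VCaP. The siControl pairs of the preceding comparison are among them, so the results are not independent of it. Pairs with different siRNAs stood in for replicates of a line, and in VCaP each siRNA had 1 pair. Both lines shared 1 estimate of the spread, which holds siRNA and dose differences in the response. In LNCaP, 3 of 10 members were called, 2 higher and 1 lower, against 18.3% of all genes tested, 9.36% higher and 8.93% lower. In VCaP 3 of 10 were called, again 2 higher and 1 lower, against 29.7%, 14% higher and 15.6% lower. The median change over the 10 members was -0.01 in LNCaP and 0.03 in VCaP, and over all genes tested it was -0.01 and 0.01.

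For SMAD3, the R1881 minus vehicle difference in LNCaP was -0.64 with siControl and -0.40 with siCTBP1-AS in set 1, -1.03 and -0.03 in set 2, and -0.51 with siControl and -0.21 with siPSF in set 3. In VCaP it was -1.20 with siControl, -0.78 with siCTBP1-AS and -0.95 with siPSF. SMAD3 was thus lower with R1881 in 9 of 9 pairs, as were 6.62% of genes tested. It fell by 0.47 in LNCaP (SE 0.11, limma adjusted p = 0.0124) and by 0.98 in VCaP (SE 0.16, adjusted p = 0.000867), or 1.97-fold. The VCaP minus LNCaP difference in response was -0.51 (95% interval -0.93 to -0.09, adjusted p = 0.117), which did not pass the test, although its adjusted p was 0.0282 without the LNCaP set 2 siControl pair. With the 1 nM sets alone, the LNCaP response of SMAD3 was -0.53 over 2 pairs (adjusted p = 0.218).

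PMEPA1 was higher with R1881 by 2.53 to 3.34 over the 6 LNCaP pairs and by 0.95, 0.86 and 1.41 in VCaP with siControl, siCTBP1-AS and siPSF. It was higher in 9 of 9 pairs, as were 7.5% of genes tested. The mean response was 2.90 in LNCaP (SE 0.10, limma adjusted p = 2.41e-08) and 1.07 in VCaP (SE 0.14, adjusted p = 0.000322), that is 7.45-fold and 2.10-fold. No LNCaP pair overlapped a VCaP pair, and how many of all genes did the same was not counted. The response differed between lines by -1.82 (SE 0.18, adjusted p = 0.000134). VCaP started from a higher level, 10.80 to 11.40 with vehicle against 7.40 to 8.96 in LNCaP, and the R1881 levels were 12.21 to 12.34 and 9.94 to 11.75, in sets that were scaled apart.

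THBS1 differences in LNCaP were 0.92 with siControl and -0.10 with siCTBP1-AS in set 1, 0.60 and 1.95 in set 2, and 0.52 with siControl and 2.37 with siPSF in set 3. In VCaP they were -1.28 with siControl, -0.25 with siCTBP1-AS and -0.20 with siPSF. All VCaP pairs lay below all LNCaP pairs, and the share of all genes that did so was not counted. The LNCaP mean was 1.04 (SE 0.28, limma adjusted p = 0.0219), but the adjusted p was 0.0655 without the set 2 siCTBP1-AS pair, 0.0618 without the set 3 siPSF pair and 0.0752 with the 1 nM sets alone. In VCaP the mean was -0.58 (SE 0.39, adjusted p = 0.302). The difference between lines was -1.62 (SE 0.48, adjusted p = 0.0494), and it did not pass in 10 of 17 alternatives, among them the fit without the VCaP siControl pair (-1.27, adjusted p = 0.242). The 15 interferon genes also had a higher response in VCaP than in LNCaP, 2 of them called (MX1 and RIGI), with a median difference of 0.62, and their part in the THBS1 difference was not tested.

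SMAD4, the common partner of the receptor-activated SMADs, read 10.93, 10.81 and 10.87 with vehicle in VCaP and 11.23, 11.27 and 11.34 with R1881, in the order siControl, siCTBP1-AS, siPSF. The treatments did not overlap, and SMAD4 rose by 0.41 (SE 0.09, limma adjusted p = 0.00396), or 1.33-fold. In LNCaP the 6 pairs ran from -0.04 to 0.26 (mean 0.12, adjusted p = 0.192), and the difference between lines, 0.29, did not pass (95% interval 0.06 to 0.52, adjusted p = 0.101).

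Among the receptors, TGFBR1 was higher with R1881 in 3 of 3 VCaP pairs, by 0.34, 0.17 and 0.28, with a mean of 0.26 just outside the threshold (limma adjusted p = 0.0589). It passed in 3 of 18 alternatives. TGFBR3 was lower in 3 of 3 VCaP pairs, by 0.96 with siControl against 0.04 with siCTBP1-AS and 0.22 with siPSF, so that its mean of -0.41 had an SE of 0.19 and did not pass (adjusted p = 0.129). TGFBR2 differences ran from -0.24 to 0.21 over the 9 pairs.

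The inhibitory SMADs showed no shared direction with R1881. SMAD6 was higher in 5 of 9 pairs, with differences from -0.44 to 0.29, and SMAD7 was higher in 4 of 9, from -0.41 to 0.46. SMAD2 was lower in 8 of 9 pairs, but by 0.33 at most (LNCaP mean -0.09, limma adjusted p = 0.340), and its dimmer cluster was lower in 7 of 9 pairs. Between the lines, 2 of 10 members, PMEPA1 and THBS1, were called in the difference of responses, both lower in VCaP, against 11.6% of all genes, 6.33% lower and 5.25% higher.

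**Figure D2:**
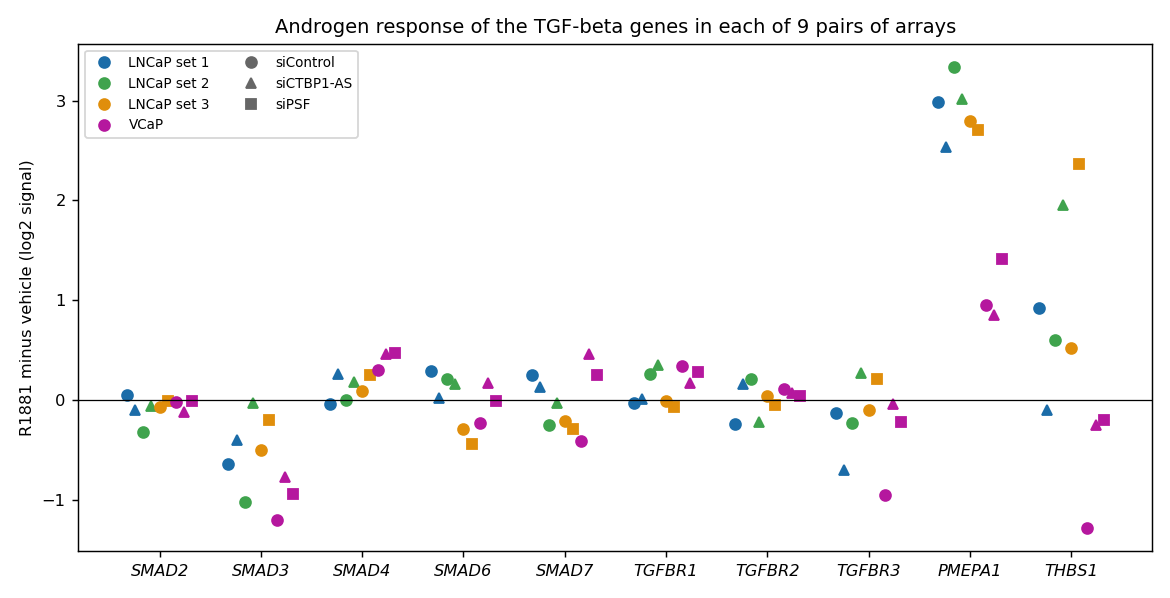
R1881 minus vehicle in log2 signal (vertical axis) for the 10 members, with 1 point per pair of arrays. Colour gives the array set and shape the siRNA. PMEPA1 lies above 0 and SMAD3 below 0 in all 9 pairs, THBS1 has LNCaP points from -0.10 to 2.37 and VCaP points from -1.28 to -0.20, and the other members lie between -0.96 and 0.47.

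The knockdowns were compared with siControl of the same set, averaged over vehicle and R1881, to ask which genes differed when CTBP1-AS or PSF was knocked down. THBS1 was the member with the largest difference under both siRNAs, and in neither did a member pass the test over both lines. With siCTBP1-AS 0.565% of all genes and 0 of 10 members were called, with 4 members at an unadjusted p under 0.05 in limma. With siPSF the values were 1.45%, 0 of 10, and 5.

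With siCTBP1-AS, THBS1 was 3.12 (vehicle) and 2.09 (R1881) above siControl in LNCaP set 1, 1.15 and 2.50 above it in LNCaP set 2, and 0.19 and 1.22 above it in VCaP. It was higher in 6 of 6 differences, as were 4.07% of genes tested. The estimate over both lines, 1.90 (SE 0.39, a 3.73-fold difference), had a limma adjusted p of 0.0537. It passed in 4 of 28 alternatives, among them the 12 LNCaP arrays alone, where it was 2.21 (adjusted p = 0.0240), and the fit without the VCaP siControl R1881 array (2.15, adjusted p = 0.0411).

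With siPSF, THBS1 was 2.07 (vehicle) and 3.92 (R1881) above siControl in LNCaP set 3, and -0.11 and 0.97 relative to it in VCaP. The estimate over both lines was 1.87 (SE 0.46, limma adjusted p = 0.0771). It passed without the VCaP siControl vehicle array (2.24, adjusted p = 0.0415) and without the VCaP siControl R1881 array (2.20, adjusted p = 0.0467). In VCaP, THBS1 was already at 11.78 with vehicle and siControl, while in LNCaP siControl vehicle it was at 5.43 to 8.14.

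The LNCaP and VCaP differences of THBS1 did not overlap with siPSF, which had 1 array set per line, and did overlap with siCTBP1-AS. How many of all genes did not overlap was not counted. The VCaP minus LNCaP difference was -2.56 for siPSF (SE 0.59, limma adjusted p = 0.139) and -1.51 for siCTBP1-AS (SE 0.51, adjusted p = 0.305). For siPSF it passed without the LNCaP set 1 siCTBP1-AS vehicle array, which holds no siPSF and left the estimate at -2.56. For siCTBP1-AS it passed with the 1 nM sets alone (-1.12), a fit that leaves 1 residual degree of freedom. In these tests of the difference between lines 0.159% and 0.138% of all genes were called, and 0 members, with 1 member in each, THBS1, at an unadjusted p under 0.05.

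The interferon-induced genes had list medians of 2.38 with siCTBP1-AS and 1.73 with siPSF over both lines. Of all genes tested, 0.565% were called with siCTBP1-AS and 1.45% with siPSF. All 15 of the 15 found (16 listed) had an estimate above siControl with siCTBP1-AS over both lines. Of these, 14 were at an unadjusted p under 0.05 and 3 were called by limma (OAS1 2.84, RSAD2 3.12 and RIGI 1.87). With siPSF all 15 estimates over both lines were also above siControl, 13 at an unadjusted p under 0.05 and 1 called (IFI44L, 3.76). The list's mean level over the array median ran from -0.89 to 4.50 over the LNCaP arrays and from 0.09 to 3.32 over the VCaP arrays.

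The median interferon difference and that of THBS1 were highest in different sets. The interferon median was 2.75 and 4.95 (vehicle, R1881) with siCTBP1-AS in LNCaP set 1, 2.24 and 2.90 in set 2, and 1.20 and 1.29 in VCaP. With siPSF it was 2.43 and 2.89 in VCaP, but -0.04 and 0.13 in LNCaP set 3, where THBS1 had its highest difference, 3.92. The fibroblast list had a median change of 0.08 with siCTBP1-AS and 0.00 with siPSF over its 4 genes tested. LUM, a fibroblast marker left out by the filter on low values, lay at -1.37 to 3.86 over the array median in VCaP. There it differed from siControl by -1.15 to 0.28 with siCTBP1-AS and by 0.37 to 1.94 with siPSF. The leukocyte list, with 2 genes tested, had medians of 0.50 with siCTBP1-AS (2 at an unadjusted p under 0.05) and 0.34 with siPSF (1). The luminal list, with 6, had medians of -0.34 with siCTBP1-AS (3 at an unadjusted p under 0.05) and -0.04 with siPSF (0), and none of these genes was called. The part of these lists in the member differences was not tested. In the sets where the interferon genes were higher, their part in the THBS1 differences was not tested.

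**Figure D3:**
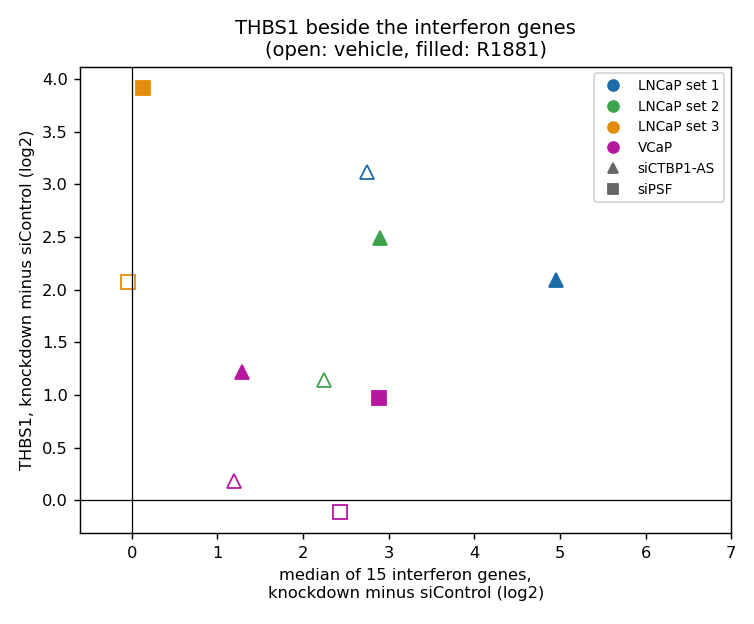
THBS1 knockdown minus siControl (vertical axis, log2) against the median knockdown minus siControl of 15 interferon genes (horizontal axis, log2) in the 10 differences, with colour for the array set, shape for the siRNA, open points for vehicle and filled points for R1881. LNCaP siPSF lies at 2.07 and 3.92 for THBS1 with interferon medians of -0.04 and 0.13, and VCaP siPSF at -0.11 and 0.97 with medians of 2.43 and 2.89.

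The inhibitory SMADs were above siControl with siPSF in every difference. SMAD6, which restrains mainly the BMP branch, was 0.44 and 0.29 above siControl (vehicle, R1881) in LNCaP and 0.69 and 0.91 in VCaP, and SMAD7, which blocks the TGF-beta type I receptor, was 0.46 and 0.37 above it in LNCaP and 0.10 and 0.76 in VCaP. Among all genes tested, 10.9% were higher in 4 of 4 differences. The estimates were 0.52 for SMAD6 (SE 0.14, limma adjusted p = 0.0930) and 0.41 for SMAD7 (SE 0.11, adjusted p = 0.120), and neither passed. TGFBR1 was lower in 4 of 4 differences, by 0.39 and 0.46 in LNCaP and by 0.13 and 0.19 in VCaP. Its estimate was -0.32 (limma adjusted p = 0.177), and 14.7% of genes were lower in all 4.

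PMEPA1 was lower in 5 of 6 differences with siCTBP1-AS, by up to 0.84 (estimate -0.29, limma adjusted p = 0.218). With siPSF it was lower in 4 of 4, by 0.13 to 0.60 (estimate -0.42, adjusted p = 0.195). SMAD4 was lower in 4 of 6 differences with siCTBP1-AS, of which set 2 gave the largest, -0.69 and -0.51 (estimate -0.24, adjusted p = 0.188). SMAD2's clusters differed in LNCaP set 1 with siCTBP1-AS: the dimmer cluster was lower by 0.93 and 0.91 (vehicle, R1881) and the brighter by 0.28 and 0.43. In LNCaP set 2 the brighter cluster was 0.16 and 0.42 above siControl, so the sets did not share a direction. TGFBR2 and TGFBR3 had siCTBP1-AS estimates of -0.19 and 0.18, and siPSF estimates of -0.01 and 0.30, and did not pass.

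**Figure D4:**
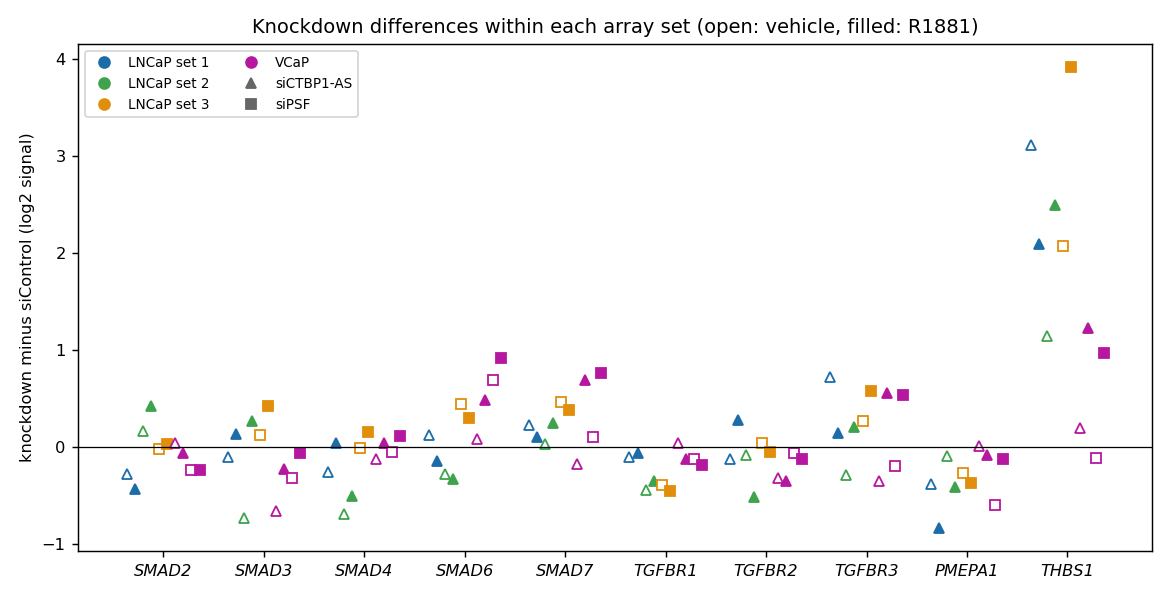
Knockdown minus siControl in log2 signal (vertical axis) for the 10 members, within each array set. Triangles are siCTBP1-AS, squares siPSF, open points vehicle and filled points R1881, and colour gives the array set. THBS1 spans -0.11 to 3.92, and the other members lie between -0.84 and 0.91.

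SMAD3 had a smaller androgen decrease with knockdown than with siControl in 5 of 5 sets of knockdown arrays. Both VCaP comparisons used the same siControl pair, so the 5 are not independent. That pair had the most negative SMAD3 response of the 9 pairs, -1.20. The response was less negative by 0.25 with siCTBP1-AS in LNCaP set 1, by 0.99 in set 2 and by 0.43 in VCaP, and with siPSF by 0.30 in LNCaP set 3 and by 0.25 in VCaP. Of all genes tested, 9.73% had a higher response with knockdown in all 5, and so did 24.4% of the 914 genes that were lower with R1881 in all 9 pairs. Part of the SMAD3 difference lay in the vehicle arrays: siCTBP1-AS minus siControl was -0.11, -0.73 and -0.66 with vehicle in LNCaP sets 1 and 2 and VCaP, and 0.14, 0.26 and -0.23 with R1881. SMAD4 also had a higher response with knockdown in 5 of 5, with the same shared VCaP siControl pair.

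No change of the androgen response passed the test. For SMAD3 the change was 0.49 with siCTBP1-AS (SE 0.20, unadjusted p = 0.0273, limma adjusted p = 0.996) and 0.41 with siPSF (SE 0.23, adjusted p = 1.00). For THBS1 it was 0.50 (SE 0.74) and 1.35 (SE 0.85). In limma 0% of the 13813 genes were called in either comparison, with 482 genes at an unadjusted p under 0.05 for siCTBP1-AS and 268 for siPSF.

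Of the 3 receptors, TGFBR2 and TGFBR3 did not overlap between the lines in level over all arrays of both treatments, and TGFBR1 did. Each gene was expressed as log2 signal minus the median of its array, a scale that does not remove every difference between sets normalized separately, and that cannot tell the cell line and its array set apart. TGFBR2 lay at -1.85 to -0.97 (median -1.29) over the 12 LNCaP arrays and at 0.45 to 0.93 (median 0.77) over the 6 VCaP arrays. Its LNCaP log2 signal was low, 4.25 to 5.66 against 6.73 to 7.16 in VCaP. It passed the filter on low values over all 18 arrays, with the VCaP arrays included. TGFBR3 went the other way, at 1.45 to 2.26 (median 1.82) in LNCaP and -0.85 to 0.09 (median -0.30) in VCaP. TGFBR1 lay at 1.20 to 2.04 (median 1.45) in LNCaP and 2.02 to 2.50 (median 2.24) in VCaP. Within a treatment TGFBR1 did not overlap, at 1.20 to 1.90 and 2.02 to 2.15 with vehicle. With R1881 it lay at 1.22 to 2.04 and 2.32 to 2.50.

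SMAD4 and SMAD7 were also above all LNCaP arrays in VCaP. SMAD4 had medians of 3.86 and 4.84, and SMAD7 of -0.06 and 1.05, in LNCaP and VCaP. The lines did not overlap for 4 of 10 members, 3 of them with VCaP above, against 23.7% of all genes tested, 13.6% with VCaP above and 10.2% below. TGFBR2, 1 of these 4, did not pass the filter on low values over the LNCaP siControl arrays. The 6 others overlapped over all arrays, but PMEPA1 and TGFBR1 did not within either treatment. With vehicle PMEPA1 lay at 0.69 to 2.16 in LNCaP and 4.55 to 5.14 in VCaP. With R1881 it lay at 3.24 to 5.37 and 5.99 to 6.11. THBS1 did not overlap with vehicle, at -0.30 to 4.54 and 5.43 to 5.69. It did with R1881, at 0.30 to 4.51 and 4.26 to 5.46. The share of all genes was not counted within a treatment, where it is at least the 23.7% found over all arrays. Whether these members stand out there was not tested. PMEPA1 (medians 2.70 and 5.56) and THBS1 (1.75 and 5.44) had the widest spread within LNCaP.

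**Figure D5:**
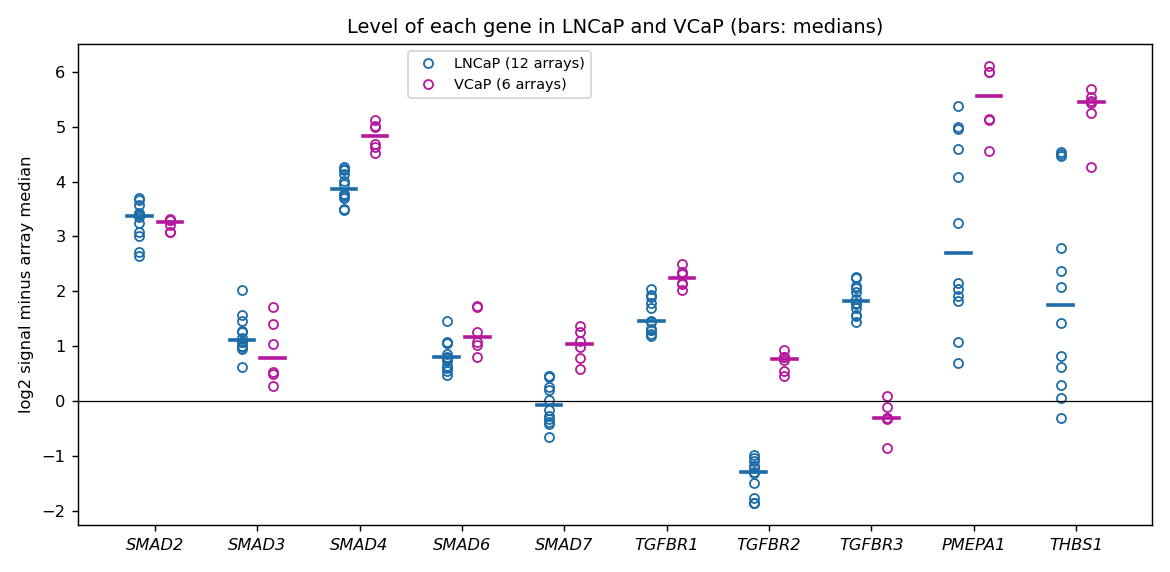
Log2 signal minus the array median (vertical axis) for the 10 members on 12 LNCaP and 6 VCaP arrays, with bars at the medians. TGFBR2 is at -1.29 in LNCaP and 0.77 in VCaP by median, TGFBR3 at 1.82 and -0.30, and neither overlaps between the lines.

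The other genes of the pathway were taken from a list of 56 ligands, latent-binding proteins, receptors, SMAD partners and target genes, of which 55 were found on the array. In LNCaP siControl, 5 of 46 tested rose and 1 fell with R1881, against 2.9% and 2.41% of all genes. SNAI2, a transcription factor of epithelial plasticity, rose by 4.48 on the log2 scale (limma adjusted p = 0.000332), followed by the integrin subunit ITGAV (0.87), the ubiquitin ligase NEDD4L (0.73), RUNX1 (0.71) and the SMAD phosphatase PPM1A (0.67). BAMBI, a decoy receptor, fell by 1.03 (adjusted p = 0.00525). The median over the list was 0.02, against -0.02 over all genes.

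Over the siRNAs, 10 of 48 of these genes rose and 5 fell in LNCaP, and 9 rose and 7 fell in VCaP, with list medians of 0.02 and 0.03. Of all genes, 9.36% rose and 8.93% fell in LNCaP, and 14% rose and 15.6% fell in VCaP. In LNCaP the largest were SNAI2 (4.11), NEDD4L (0.72), ITGAV (0.66) and RUNX1 (0.65) upward, and the matrix protein fibronectin FN1 (-0.77) and BAMBI (-0.68) downward. In VCaP SNAI2 (1.95), the ligand TGFB2 (1.89), the transglutaminase TGM2 (1.13) and the cell cycle inhibitor CDKN1A (0.70) rose, while the latent-binding protein LTBP1 (-2.21), IGFBP3 (-2.00), FN1 (-1.07) and the activin subunit INHBA (-0.88) fell. The ubiquitin ligases SMURF1 and SMURF2, which act with the inhibitory SMADs, rose in both lines, SMURF1 by 0.35 and 0.46 and SMURF2 by 0.29 and 0.26.

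Of these 48 genes, 0 were called with siCTBP1-AS and 0 with siPSF by limma, with 11 and 3 at an unadjusted p under 0.05. BAMBI had the largest difference under both. With siCTBP1-AS it was 0.40 and 0.87 above siControl (vehicle, R1881) in LNCaP set 1, 2.06 and 3.04 in set 2 and 0.34 and 0.99 in VCaP. The estimate over both lines was 1.29 (limma adjusted p = 0.0534), and with siPSF it was 0.80 (adjusted p = 0.275). All 10 differences of BAMBI were above 0, and in VCaP those of both siRNAs used the same siControl arrays. The largest differences downward, TGM2 at -0.39 with siCTBP1-AS and NEDD4L at -0.29 with siPSF, did not pass either.

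Genes with a pattern most like each of 4 members were ranked by Pearson's r over the 18 arrays with the mean of each array set removed. These arrays share sets and treatments, so r is a description. SMAD3 was most alike SIK2 (0.97), AEBP2 (0.93) and MED14 (0.93), and 11 genes had an r above 0.9. PMEPA1 was most alike RAB3B (0.97), the kallikrein KLK2 (0.96) and the kinase CAMKK2 (0.96), with 83 genes above 0.9. THBS1 was most alike ETV3 (0.86), the smooth muscle actin ACTA2 (0.82) and IRF2 (0.82), and TGFBR2 was most alike RB1 (0.88), UBLCP1 (0.83) and SART1 (0.81), with 0 genes above 0.9 for either. TGFBR2 did not pass the filter on low values over the LNCaP siControl arrays, so its r rests in part on low signal. Among the members themselves r was -0.66 for SMAD3 and PMEPA1, 0.68 for SMAD6 and SMAD7, 0.61 for TGFBR3 and THBS1 and 0.60 for SMAD4 and TGFBR1.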

How the data were processed

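Per the submitters' processing notes, the authors made the deposited log2 signals with RMA in Affymetrix Expression Console 1.1.1; genome build and RMA settings beyond this are not given in the sources used here. Medians lay apart between the 4 array sets, so differences were taken within a set. Clusters were named by the platform annotation: 19460 had 1 symbol, 1754 several and 12083 none listed. Each gene was its cluster of highest mean (769 genes had more than 1), and the 25% of genes with the lowest mean were left out, which left 13813.

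Tests used limma 3.58.1 in R 4.3.3 (lmFit, eBayes), with Benjamini-Hochberg adjustment over all genes tested and a threshold of 0.05. They were tested on simulated data. The LNCaP siControl fit had the set as a block, which is the replicate number. Vehicle and R1881 arrays of the same number deviated together (r = 0.78, 0.84 and 0.70; between numbers -0.64 to -0.08). Responses over siRNAs had the 9 pairs as a block. Knockdown effects had the set as a block and 1 siControl response to R1881 per line. The numbered siRNA, the dose and, in part, the cell line cannot be told apart from the set. The number of arrays limits the precision.

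The members and gene lists were chosen with earlier results of these data known. Named genes were all members; of the other pathway genes, up to 6 of the largest called each way, or the gene of largest change where none was called; the 3 genes most alike 4 members; and SFPQ and CTBP1. SMURF1, SMURF2, OAS1, RSAD2, RIGI, MX1, IFI44L and LUM, and the called genes that this rule leaves out, were named after their values were seen. Alternatives were other filters, scalings, variance settings, blocks and left-out arrays.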

Additional observations from a re-analysis of the deposited data

Results flagged for a closer look

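These responses to R1881 differed between VCaP and LNCaP in limma's test of the difference itself (VCaP minus LNCaP, log2). Among the members they were PMEPA1 (-1.82, adjusted p = 0.000134) and THBS1 (-1.62, adjusted p = 0.0494). Of the other pathway genes, the response was higher in VCaP for TGFB2 (1.88), CDKN1A (0.87) and ENG (0.65). It was lower in VCaP for IGFBP3 (-2.19), SNAI2 (-2.16), LTBP1 (-1.92), INHBA (-0.77), ITGAV (-0.62), NEDD4L (-0.50) and ITGB8 (-0.40). Their adjusted p ran from 2.79e-05 (LTBP1) to 0.0424 (ITGB8), leaving aside THBS1. TGFB2, ITGB8 and INHBA did not pass the filter on low values over the LNCaP siControl arrays. Their LNCaP medians were -1.49, -1.96 and -1.21 in log2 signal minus the array median. For these genes a smaller response in LNCaP cannot be told apart from low signal there. The lines also differed in dose for 4 of the 6 LNCaP pairs and in array set, which cannot be told apart from the line. No group had 4 or more arrays, so single arrays were not tested as outliers.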

How the results depend on the processing

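No difference of a member with an unadjusted p under 0.05 changed direction in any alternative run. The fit with no replicate block (no pairs) called 1 member in LNCaP siControl, 1 in LNCaP over siRNAs, 0 in VCaP and 0 in the difference between lines, against 3, 3, 3 and 2 in the paired fits, and 35, 170, 101 and 3 of all genes against 734, 2527, 4097 and 1599. With the 1 nM sets alone, an alternative chosen after seeing the data, LNCaP over siRNAs had 1 member and 564 genes, and the siCTBP1-AS difference between lines 1 member. The difference between lines had 1 member with no filter on low values and 1 with trended, robust variances. For siCTBP1-AS, 1 member, THBS1, was called with the 50% filter, with each array's median subtracted and in LNCaP alone. Leaving out 1 array or pair at a time gave 1 to 3 members in LNCaP siControl, 2 to 3 in LNCaP, 3 to 4 in VCaP, 1 to 2 in the difference between lines, 0 to 1 for each siRNA over both lines, 0 to 1 for the siPSF and 0 to 0 for the siCTBP1-AS difference between lines, and 0 to 0 for both changes of the androgen response.

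Over all genes, the siCTBP1-AS count of 78 became 46 with no filter, 188 with the 50% filter, 136 with medians subtracted, 49 in the sets with that siRNA, 128 in LNCaP alone, 4 with the 1 nM sets and 0 with no block. The siPSF count of 200 became 53 in the sets with that siRNA, 1 in LNCaP and 2 with no block. The counts of 19 and 22 for differences between lines became 3 and 3 with the 50% filter, 12 and 12 with quantile normalization and 0 and 0 with no block; with the 1 nM sets alone, which leave 1 residual degree of freedom, the first was 1083. Without the VCaP siControl pair, 2048 genes were called in VCaP and 546 between lines, where 867 and 1021 were called without the VCaP siCTBP1-AS and siPSF pairs. Subtracting medians moved the share of calls that were higher from 51.2% to 61.2% in LNCaP over siRNAs and from 39.7% to 25.7% with siCTBP1-AS, where quantile normalization gave 56.1%. Leaving out 1 array at a time gave 3 to 56 genes with siCTBP1-AS (3 without the LNCaP siControl vehicle array of set 2, 5 without the siCTBP1-AS R1881 array of set 2) and 56 to 196 with siPSF (56 without the VCaP siPSF vehicle array). For the differences between lines it gave 0 to 40 with siCTBP1-AS and 1 to 42 with siPSF, in both highest without the LNCaP siControl R1881 array of set 1. The causes were not tested.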

Other observations

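CTBP1, the corepressor gene opposite CTBP1-AS, fell with R1881 by 0.87 on the log2 scale in LNCaP siControl (SE 0.17, limma adjusted p = 0.0350) and by 0.61 in LNCaP over siRNAs (SE 0.12, adjusted p = 0.00383). In VCaP the value was -0.27 (adjusted p = 0.256). With siCTBP1-AS the estimate for CTBP1 against siControl over both lines was -0.05 (SE 0.11, limma adjusted p = 0.852). Its 6 differences did not share a direction, 3 higher and 3 lower. They ran from -0.64 to 0.18 in LNCaP and from 0.04 to 0.28 in VCaP.

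Among all genes, those with the most opposite pattern over the 18 arrays, set means removed, were RAB1B for SMAD3 (r = -0.94), PIK3R3 for PMEPA1 (-0.92), ZP3 for THBS1 (-0.87) and EFNA3 for TGFBR2 (-0.80). They were named after their values were seen. The TGFBR2 signal was low in LNCaP.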
